A study of Mus musculus with 6 samples.

Results

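The interferon regulatory factor (IRF) genes were examined in mouse primary hippocampal neurons exposed to apolipoprotein E (apoE) particles made by astrocytes or by microglia. The set was given as a list of 8 symbols, Irf1, Irf2, Irf3, Irf4, Irf5, Irf7, Irf8 and Irf9, and all 8 had a value other than 0 in every sample, among 26562 of 47593 symbols that did. Both groups were wild-type (WT) neurons that received 6 µg/mL of particles at culture day 10 for 24 h, either astrocytic apoE (3 samples) or microglial apoE (3 samples), followed by RNA sequencing of total RNA. The comparison asked how the cell that made the particles alters the transcriptome of the neurons that receive them. Untreated neurons were not analysed here, and every direction is microglial relative to astrocytic apoE. No label says that the 3 samples of a group were separate cultures or animals. The limma p-values rest on the spread between these samples, which may be technical, and on a spread pooled over all genes fitted.

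IRF proteins bind DNA through a conserved amino-terminal domain that recognises GAAA repeats, the core of the interferon-stimulated response element (ISRE). Cells hold Irf3 ready for use, and sensing of foreign nucleic acid leads to its phosphorylation and to transcription of interferon genes. Secreted interferon then acts through its receptor on ISGF3, a complex that holds Stat2 and Irf9, which drives antiviral genes and Irf7, a second inducer of interferon. Irf1 and its antagonist Irf2 compete for similar sites, whereas Irf4, Irf5 and Irf8 are best known from lymphoid and myeloid cells, microglia among them.

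Deposited values are on a log2 scale common to all samples. The sequencing depth is unknown, and the sum of 2^value, 18060473 to 18337624 per sample, is not a count of reads. The values have the properties of a regularized logarithm, which pulls weakly expressed genes towards their own mean: 21031 symbols stood at 0 in all samples and 0 symbols in only some. Fold changes and spreads of low genes may therefore be understated. Samples of the same group differed by a median absolute log2 value of 0.0256 to 0.037, and samples of different groups by 0.0425 to 0.0563. The labelled cell type was checked on fixed markers. The 10 neuronal markers summed to 73700 to 74400 on the 2^value scale with astrocytic and 71600 to 72300 with microglial apoE, and the 10 astrocyte markers to 58900 to 59700 and 50900 to 51800, so both cell types contributed RNA. Single markers did not all move together at a limma adjusted p under 0.05. Of the 10 astrocyte markers, 7 were lower (Gfap by a log2 fold change of -1.08), 1 was higher (Slc1a3, 0.09) and 2 did not pass. Of the 10 neuronal markers, 4 were lower, 1 was higher (Gad1, 0.25) and 5 did not pass. In such bulk samples, fewer cells of a type, less RNA per cell and changes of single genes cannot be told apart. The part of the lower astrocyte sum in the IRF values was not tested.

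Of the 8 genes, 4 rose with microglial apoE: Irf7 by 3.0-fold, Irf9 by 2.85-fold, Irf1 by 1.18-fold and Irf2 by 1.17-fold. Irf3, Irf5 and Irf8 did not pass the test, and Irf4 was too low to be tested. Testing required a value of at least 3.32, which is 10 on the 2^value scale, in 3 or more samples, and 7 members among 15055 genes met this. A gene was called at a Benjamini-Hochberg adjusted p under 0.05 in limma, with the adjustment over all genes tested. The 4 higher and 0 lower calls among 7 members stand beside 13.0% of all tested genes called higher, 11.8% called lower and 24.9% called in either direction. At an unadjusted p under 0.05, limma also gave 0 lower members. The median log2 fold change was 0.226 over the 7 members and -0.001 over all tested genes. Values of the 2 groups did not overlap in 5 of the 7 members and in 38.9% of all tested genes.

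**Figure D1:**
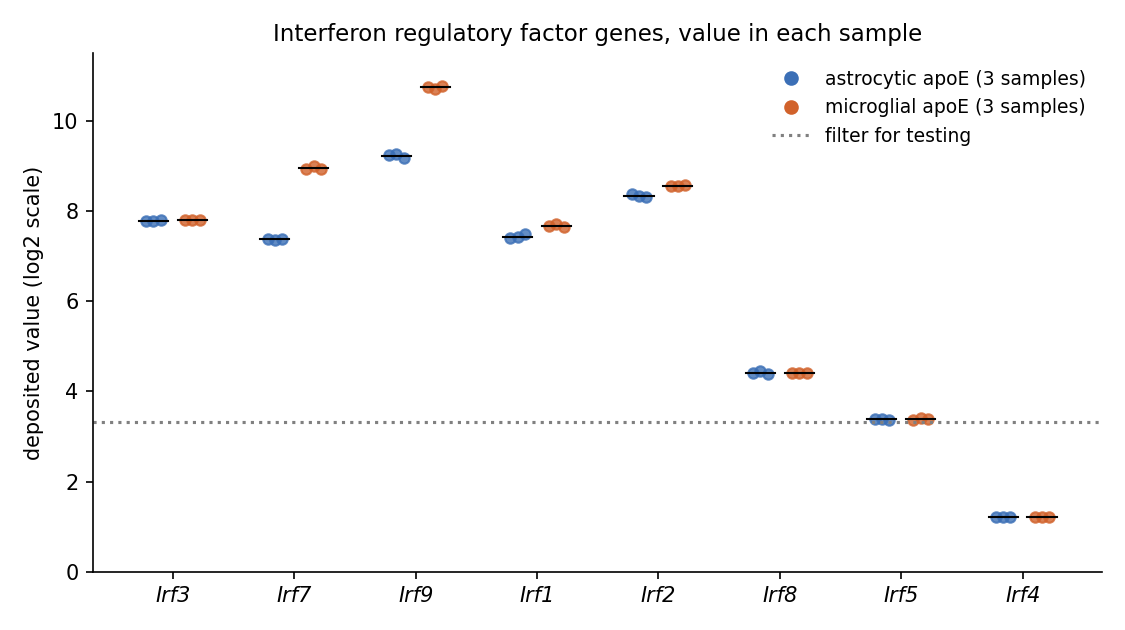
Deposited value (log2 scale) of each IRF gene in each sample, with a bar at the group mean and 3 samples per group. Irf7 and Irf9 separate widely between groups, Irf1 and Irf2 separate narrowly, and the dotted line at 3.32 marks the filter that Irf4 does not reach.

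Irf3 (chromosome 7, 44997648 to 45002848, GRCm38, protein-coding) encodes the latent factor that starts interferon transcription. Its value was 7.77, 7.78 and 7.79 with astrocytic apoE and 7.80 in each of the 3 samples with microglial apoE. The groups lay side by side without overlapping, and the log2 fold change was 0.02 ± 0.029 SE (95% interval -0.04 to 0.08, limma adjusted p = 0.65). The interval holds no difference above 0.08 in either direction on this scale, but a missed threshold does not show that Irf3 was alike in both groups.

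Irf7 (chromosome 7, 141262706 to 141266481, minus strand) encodes the interferon-inducible amplifier of type I interferon production. It stood at 7.37, 7.36 and 7.38 with astrocytic apoE and at 8.93, 9.0 and 8.92 with microglial apoE. All 3 microglial samples lay far above all 3 astrocytic samples. Irf7 rose 3.0-fold, from 7.37 ± 0.009 to 8.95 ± 0.040 (SD, n = 3), a log2 fold change of 1.58 ± 0.031 SE (limma adjusted p = 4.4e-23). That placed Irf7 at rank 14 from the highest among the 15055 tested genes, with only 19 genes called at a log2 fold change of 1.5 or more. The difference between Irf7 and Irf3 within a sample went from -0.41 ± 0.011 with astrocytic to 1.15 ± 0.036 with microglial apoE, a change of 1.56. An exact permutation test of that change gave p = 0.1, the smallest that 3 against 3 samples allow, and 0.15 after adjustment over the 3 pairs compared.

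Irf9 (chromosome 14, 55603571 to 55610030), the DNA-binding subunit of ISGF3, had values of 9.24, 9.26 and 9.18 with astrocytic apoE. With microglial apoE it had 10.75, 10.71 and 10.76, again without overlap. The rise was 2.85-fold, from 9.23 ± 0.043 to 10.74 ± 0.028 (SD, n = 3), a log2 fold change of 1.51 ± 0.030 SE (limma adjusted p = 9e-23, rank 18). Its partner Stat2 went from 8.79, 8.74 and 8.88 to 10.17, 10.16 and 10.22 (log2 fold change 1.38 ± 0.033 SE). Within a sample, Irf9 exceeded Stat2 by 0.43 ± 0.111 with astrocytic and by 0.55 ± 0.017 with microglial apoE (exact permutation p = 0.1, 0.15 adjusted over 3 pairs). That change of 0.13 depended on astrocytic replicate 3, where Irf9 was lowest and Stat2 highest, and it was 0.064 without that sample and 0.116 to 0.171 without any other.

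Irf1 (chromosome 11, 53770014 to 53778374) encodes the activator first described at the interferon beta promoter, and interferon gamma and inflammatory cytokines induce it. It stood at 7.39, 7.43 and 7.48 with astrocytic and at 7.67, 7.70 and 7.64 with microglial apoE. The gap between the groups was narrow but complete, and Irf1 rose 1.18-fold (log2 fold change 0.24 ± 0.030 SE, limma adjusted p = 1.3e-06). Irf2 (chromosome 8, 46739732 to 46847458), its antagonist at shared sites, had 8.38, 8.33 and 8.30 with astrocytic and 8.56, 8.55 and 8.58 with microglial apoE. These groups did not overlap either, and Irf2 rose 1.17-fold (0.23 ± 0.031 SE, limma adjusted p = 4.5e-06). Such sizes exceed those of 88.8% and 87.3% of all called genes, whereas Irf7 and Irf9 exceed 99.6% and 99.5%. Within a sample, Irf1 minus Irf2 was -0.90 ± 0.084 with astrocytic and -0.89 ± 0.043 with microglial apoE, a change of 0.01 (exact permutation p = 0.9) that was smaller than the SD within either group. The log2 change of Irf7 was 6.6 times that of Irf1.

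**Figure D2:**
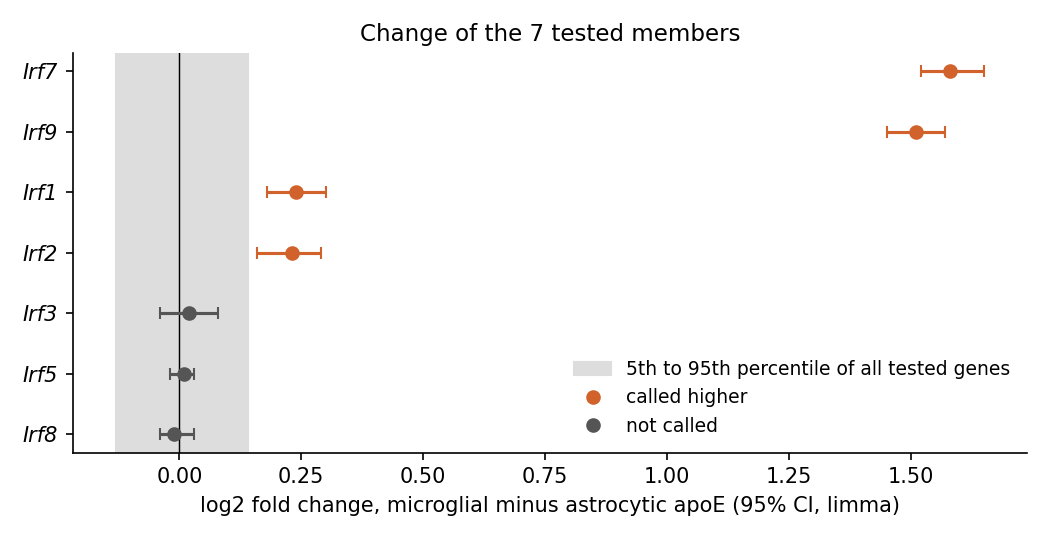
Log2 fold change, microglial minus astrocytic apoE, of the 7 tested members with 95% intervals from limma. The grey band runs from the 5th percentile (-0.13) to the 95th percentile (0.14) of all tested genes, and the intervals of Irf7, Irf9, Irf1 and Irf2 lie to its right.

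The promoter sequences of these genes were read from RefSeq (GRCm38.p6), where all 8 members matched with 11 windows of 250 bases before to 50 bases after a transcript start. Each window was searched for the ISRE core, GAAA and GAAA separated by any 2 bases, on both strands and for the gamma-activated sequence (GAS) TTCNNNGAA, a STAT dimer motif that reads the same on both strands. The ISRE core occurred in 3.44% and GAS in 8.30% of all 32851 windows of 300 bases. Among the members, the windows of Irf2 held an ISRE core, and those of Irf1, Irf2 and Irf8 held GAS. The sequences of 3 genes that rose and of Irf8, which did not pass, are shown 5′ to 3′ up to the first annotated exon of a protein-coding gene, with motif letters in capitals. Irf1 is chr11:53769764-53770013 (plus strand), Irf2 is chr8:46739495-46739731 (plus strand), Irf7 is chr7:141266482-141266674 (minus strand) and Irf8 is chr8:120736108-120736357 (plus strand).
Irf1: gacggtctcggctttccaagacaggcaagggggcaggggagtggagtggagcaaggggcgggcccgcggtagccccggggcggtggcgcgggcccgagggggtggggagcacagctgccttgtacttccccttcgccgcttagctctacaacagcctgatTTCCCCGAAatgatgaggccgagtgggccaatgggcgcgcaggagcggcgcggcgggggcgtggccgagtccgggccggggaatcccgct
Irf2: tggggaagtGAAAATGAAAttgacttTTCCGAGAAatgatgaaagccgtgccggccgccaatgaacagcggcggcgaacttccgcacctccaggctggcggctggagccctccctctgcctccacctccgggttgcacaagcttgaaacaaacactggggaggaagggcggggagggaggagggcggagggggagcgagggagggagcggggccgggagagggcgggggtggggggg
Irf7: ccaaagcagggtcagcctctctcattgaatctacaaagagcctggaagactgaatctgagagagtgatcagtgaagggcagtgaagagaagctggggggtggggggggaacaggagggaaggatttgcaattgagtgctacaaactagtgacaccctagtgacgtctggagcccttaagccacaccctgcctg
Irf8: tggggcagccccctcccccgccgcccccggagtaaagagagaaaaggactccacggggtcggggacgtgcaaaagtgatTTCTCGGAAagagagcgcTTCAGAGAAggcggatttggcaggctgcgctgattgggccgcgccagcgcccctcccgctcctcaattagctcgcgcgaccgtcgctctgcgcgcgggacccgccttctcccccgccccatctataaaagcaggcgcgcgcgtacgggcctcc
In Irf1 the GAS match TTCCCCGAA begins 90 bases before the start. In Irf2 the ISRE match GAAAATGAAA begins 241 bases and the GAS match TTCCGAGAA 224 bases before the start. Distances count from the RefSeq transcript start of the window, which for Irf2 lies after the gene start given above. Irf8 has a pair of GAS matches, TTCTCGGAA at 171 bases and TTCAGAGAA at 153 bases. Irf7 and Irf9, the members that rose most, hold neither set of letters in these windows, which says nothing of the sequence outside them. Both Irf9 windows, 55603735 to 55604034 and 55604329 to 55604628, lie after the annotated gene start at 55603571. For Irf9 the sequence before that start was therefore not searched. The first Irf9 window lies within annotated exons, and neither Irf9 window is printed. A match is a description of letters and not a measured binding site.

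Irf8 (chromosome 8, 120736358 to 120756694), a factor of myeloid development and of microglia, was low, with 4.4, 4.45 and 4.39 with astrocytic and 4.41 in each of the 3 samples with microglial apoE. The groups overlapped, and the log2 fold change was -0.01 ± 0.017 SE (95% interval -0.04 to 0.03, limma adjusted p = 0.80). Irf5 (chromosome 6, 29526625 to 29541871), which acts downstream of Toll-like receptors, had 3.39, 3.38 and 3.37 with astrocytic and 3.37, 3.40 and 3.38 with microglial apoE, just above the filter. Its groups overlapped as well (0.01 ± 0.012 SE, limma adjusted p = 0.74). Irf4 (chromosome 13, 30749226 to 30766976), a regulator of lymphocyte differentiation, stood at 1.21 to 1.22 in all 6 samples and was not tested. At mean values under 5, limma called 8.30% of 1892 tested genes, against 24.7% of 3774 genes at 7 to 9 and 28.7% of 4954 genes at 9 to 11. The median SD within a group was 0.0168 under 5 and 0.0365 at 7 to 9, while Irf8 had an SD of 0.034 with astrocytic and 0.001 with microglial apoE. Genes at such levels could be called, for example Zbp1 of the sensor list (log2 fold change 0.11), named after its values were seen. A change of Irf8 or Irf5 was not detected, which does not show its absence.

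Markers of the cells that usually express these 3 genes were low too. Of 20 microglia and macrophage markers, 19 had a value, and they summed to 1390 to 1400 on the 2^value scale with astrocytic and to 1430 to 1460 with microglial apoE. Siglech was at 0, Tmem119 stood at 1.11 to 1.12, P2ry12 at 2.19 to 2.22 and the myeloid factor Spi1 at 4.42 to 4.52. Of 15 tested, 2 rose, Ctss and C1qc, each by 0.06, and 0 fell (0 at an unadjusted p under 0.05 in limma), a count near the 13.0% of all tested genes called higher. Of 7 B and plasma cell markers none reached the filter and Ms4a1 was at 0. Of 6 T cell markers, Cd3e, Cd3d, Cd3g and Cd2 were at 0, and Lck, a kinase also present in neurons, rose by 0.10. The 7 endothelial markers summed to 109 to 113 over all samples. The 9 oligodendrocyte lineage markers summed to 2150 to 2200 with astrocytic and to 2220 to 2250 with microglial apoE. Of 7 tested, 2 were lower (Pdgfra, -0.38, and Sox10, -0.11), 1 was higher (Olig2, 0.15) and 4 did not pass. The part of any of these cells in the IRF values was not tested.

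Levels were compared between members only per length, as the value minus the log2 of the summed exon length in kb (GENCODE M21, all isoforms). With astrocytic apoE the order was Irf9 (6.80), Irf3 (5.99), Irf7 (5.45), Irf2 (5.45), Irf1 (5.44), Irf5 (1.84), Irf8 (1.60) and Irf4 (-1.08). Samples of Irf7, Irf2 and Irf1 overlapped, so those neighbours in the order did not differ beyond their spread. With microglial apoE Irf7 stood second (7.03) behind Irf9 (8.31), followed by Irf3 (6.01), Irf1 (5.68) and Irf2 (5.67), of which Irf1 and Irf2 overlapped. The lower end kept its order, with Irf5 at 1.85, Irf8 at 1.59 and Irf4 at -1.08. On a linear scale per kb, Irf9 took 35.6% ± 0.762 of the family sum (SD, n = 3) in the astrocytic group and 51.0% ± 0.848 in the microglial group. Irf7 went from 14.0% ± 0.206 to 21.1% ± 0.644, and the share of Irf3 was 20.4% ± 0.276 and 10.4% ± 0.0549 although its own level did not pass the test. Irf4, Irf5 and Irf8 held 0.151%, 1.14% and 0.967% with astrocytic apoE.

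**Figure D3:**
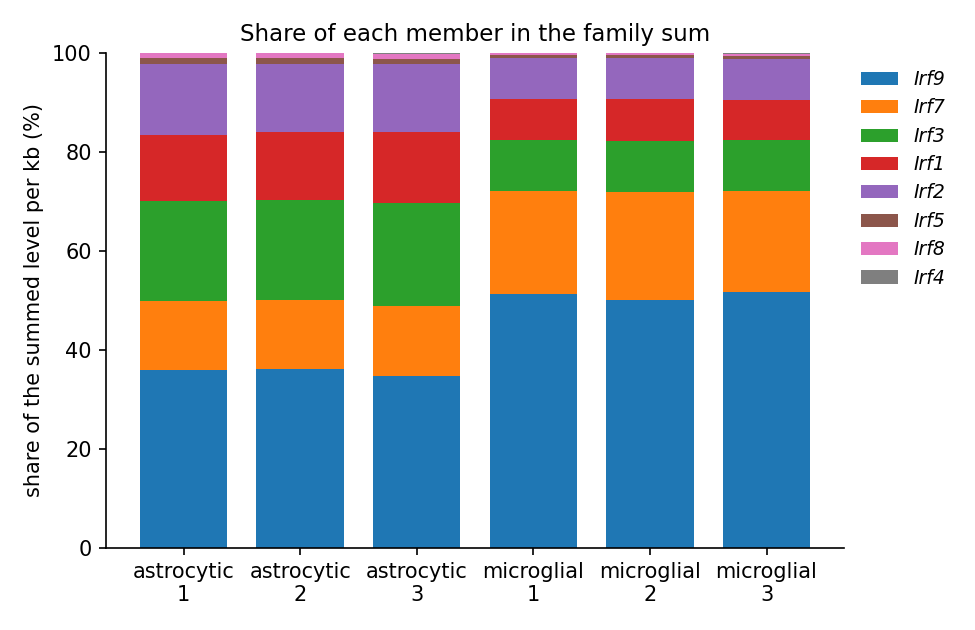
Share (%) of each member in the summed linear level per kb of the 8 IRF genes, 1 bar per sample. Irf9 and Irf7 fill more of the bar in each of the 3 microglial samples, with mean shares of 51.0% and 21.1% against 35.6% and 14.0%.

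Genes around the IRF family were described by lists written from general knowledge. The counts called in each list stand beside 13.0% of all tested genes called higher and 11.8% called lower. Of 21 interferon genes, 18, Ifnb1 and Ifng among them, were at 0 in all samples. The other 3, Ifna15, Ifne and Ifnz, named after their values were seen, stood at -1.97 to -1.96. None could be tested, and with the depth unknown this does not exclude low transcription. Of 10 tested receptors, Janus kinases and STAT partners, 2 rose, Stat2 among them, and 0 fell (0 lower at an unadjusted p under 0.05 in limma, list median 0.024). The next by p, Il10rb (0.04 ± 0.020 SE, limma adjusted p = 0.21) and Ifngr2 (-0.04 ± 0.027 SE, limma adjusted p = 0.25), did not pass. The receptor chains Ifnar1 and Ifnar2, named after their values were seen, had log2 fold changes of -0.04 and -0.01.

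Upstream of Irf3, Irf5 and Irf7, 8 of 22 tested sensors, adaptors and kinases rose and 0 fell (0 lower at an unadjusted p under 0.05 in limma), with a median of 0.021. Over all tested genes, 13.0% were called higher and 11.8% lower. The risers with the smallest p were RNA sensors. Ddx58, which encodes RIG-I, rose 2.39-fold (1.26 ± 0.029 SE), Ifih1, which encodes MDA5, by 1.07 ± 0.029 SE, the endosomal receptor gene Tlr3 by 0.35 ± 0.030 SE and Dhx58 by 0.20 ± 0.020 SE. The kinases that phosphorylate Irf3 and Irf7, named after their values were seen, did not pass: Tbk1 had 0.06 ± 0.030 SE (limma adjusted p = 0.18) and Ikbke -0.03 ± 0.018 SE (limma adjusted p = 0.30). Nor did the RNA sensing adaptor gene Mavs (0.02 ± 0.030 SE).

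Of 16 tested partners and regulators of IRF proteins, 9 rose and 0 fell, with a median of 0.117, and 1 was lower at an unadjusted p under 0.05 in limma. The shares over all tested genes were 13.0% called higher and 11.8% called lower. Usp18, a brake on interferon receptor signalling, rose 4.02-fold (2.01 ± 0.033 SE). Trim21, a ubiquitin ligase that acts on IRF proteins, rose by 0.92 ± 0.030 SE. Eif4ebp1, a translational repressor, rose by 0.37 ± 0.028 SE, and the signalling inhibitor gene Socs1 by 0.22 ± 0.026 SE. The genes of the Irf2 binding proteins, named after their values were seen, rose less: Irf2bpl by 0.19, Irf2bp2 by 0.13 and Irf2bp1 by 0.11. For Irf2bp2 the groups overlapped, with 9.18, 9.2 and 9.38 with astrocytic and 9.37, 9.4 and 9.39 with microglial apoE (limma adjusted p = 0.022). The myeloid partner Spi1 of Irf8 had 0.04 ± 0.018 SE (limma adjusted p = 0.069).

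Of 15 tested genes linked to Irf1, mostly of antigen presentation, 14 rose and 0 fell (0 lower at an unadjusted p under 0.05 in limma), with a median of 0.448. B2m, the light chain of class I molecules, rose 2.53-fold (1.34 ± 0.030 SE), the heavy chain genes H2-D1 and H2-K1 by 1.17 ± 0.029 and 0.99 ± 0.029 SE, and the peptide transporter gene Tap1 by 0.89 ± 0.033 SE. H2 genes are near-identical to each other, and counting could divide their reads. Of 29 tested genes linked to ISGF3, 28 rose and 0 fell (0 lower at an unadjusted p under 0.05 in limma), with a median of 0.888, with the smallest p for Oasl2 (log2 fold change 3.31), Ifit1 (2.57), Ifit3 (2.51) and Ifi44 (1.99). These lists were written with earlier results of these data known, so their direction is no independent evidence. Among all tested genes, 13.0% were called higher and 11.8% lower. The ISGF3 list shares 4 genes with the sensor list, Ddx58, Ifih1, Dhx58 and Zbp1, and 1 with the regulator list, Usp18. All of these rose and are counted in both of their lists, so the counts are not separate results.

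**Figure D4:**
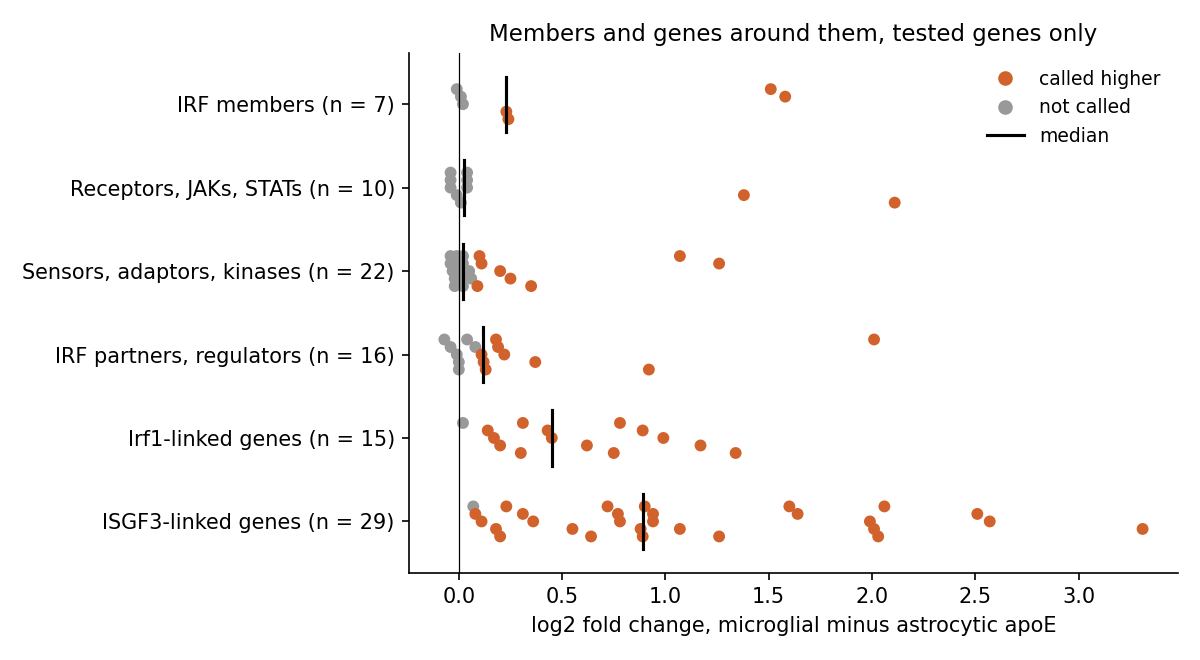
Log2 fold change, microglial minus astrocytic apoE, of every tested gene in the IRF family and in 5 lists of genes around it, with a bar at each median. Medians run from 0.021 for sensors, adaptors and kinases to 0.888 for genes linked to ISGF3, and 7, 10, 22, 16, 15 and 29 genes are plotted from top to bottom.

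The genes whose 6 values, centred on their own mean, lay closest to each called member were found by the root mean square difference over 6 samples. For Irf7 these were Ifit3b (0.0174), Ifitm3 (0.0259) and Rtp4 (0.0296). For Irf9 they were Gm4951 (0.0289), Ifit3b (0.0466) and Gbp6 (0.0499), with log2 fold changes of 1.54 to 1.60. Irf1 lay closest to Sun2 (0.0129), Gpc4 (0.0136) and Slc25a22 (0.0137), and Irf2 to Grb10 (0.00995), Ccng1 (0.015) and Rras (0.0173). The genes closest to Irf1 and Irf2 rose by 0.21 to 0.25. Fold changes near those of the members follow from choosing genes by closeness and are no separate result. Ifit3b, Gbp6 and Gm4951 have near-identical relatives, and their values are uncertain.

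The genome positions of the members were read together with the genes next to them, since the strand setting of the counting is not given in the sources used here. Of 25 genes that overlap a member or lie nearest on either side, 8 were tested and 3 rose, beside 13.0% of all tested genes called higher. With so few genes the count is a description. At the Irf9 locus, Rnf31, a ubiquitin ligase gene on the same strand whose annotated end overlaps Irf9 by 123 bases, went from 9.02 to 9.43 (0.41 ± 0.034 SE, limma adjusted p = 1e-09). Psme2, a proteasome activator gene 12458 bases from Irf9, rose by 0.43 ± 0.030 SE, and Rec8 on the other side had -0.03 ± 0.015 SE (limma adjusted p = 0.13). Reads in the 123 shared bases cannot be told apart. Phrf1, which overlaps the 3′ end of Irf7 by 45 bases on the opposite strand, had 0.06 ± 0.030 SE (limma adjusted p = 0.12), against 1.58 for Irf7. Next to Irf3, the overlapping Bcl2l12 had -0.04 ± 0.020 SE (limma adjusted p = 0.20), Gm15545 had 0.04 ± 0.018 SE (limma adjusted p = 0.078) and Scaf1 rose by 0.12 ± 0.030 SE. Tnpo3, which overlaps Irf5 by 1045 bases on the opposite strand, stood at 11.26 and 11.28 (0.02 ± 0.027 SE, limma adjusted p = 0.66), far above Irf5. Without strand, reads of Irf5 and Tnpo3 in the shared bases cannot be told apart, so the low value of Irf5 is uncertain. Gm20388, listed at 0 in all samples, spans all of Irf8 on the same strand (20337 shared bases). Overlaps here are of annotated gene spans, introns included, and shared exon bases were not counted. The low value of Irf8 may therefore be uncertain too. Gm17334, which lies inside Irf1 on the opposite strand, was under the filter at 0.85 and 0.86.

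**Figure D5:**
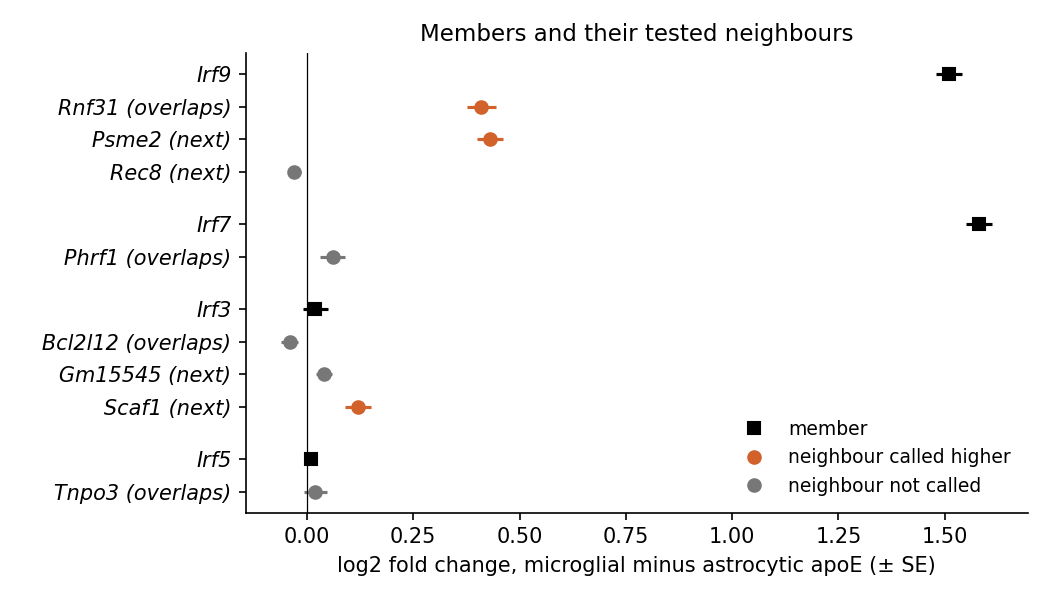
Log2 fold change, microglial minus astrocytic apoE, with SE, of members that have tested neighbours and of those neighbours. Irf9 (1.51) lies next to Rnf31 (0.41) and Psme2 (0.43), and Irf7 (1.58) overlaps Phrf1 (0.06).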

How the data were processed

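The deposited files hold a single log2 value per gene symbol and sample. GRCm38, HISAT2, featureCounts, DESeq2 and FastQC appear in the submitters' processing notes without roles or versions. Which annotation release and strand setting were used is not given in the sources used here. That the values are a regularized logarithm is inferred from the values. No logarithm or pseudocount was added. Samples were grouped by their treatment label, 3 per group, and values were fitted with limma 3.58.1 (trend and robust options) in R 4.3.3 over all genes reaching 10 on the 2^value scale in at least 3 samples. The fit was checked on simulated data. Pairs of genes were compared with two-sided exact permutation tests in scipy 1.17.1. Positions and lengths come from GENCODE M21, promoters from RefSeq GRCm38.p6. The members and lists were chosen with earlier results of these data known. Named genes are all 8 members, the 3 genes closest to each called member, overlapping and adjacent genes, 4 genes per list with the smallest p and any called lower; a gene taken by this rule is not reported here. Alternatives changed the filter, the scaling, the limma options, the samples and the block.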

Additional observations from a re-analysis of the deposited data

How the results depend on the processing

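The count of 4 called IRF genes, all higher, was the same in all 12 alternatives, and the 4 log2 fold changes ranged over them from 1.56 to 1.60 for Irf7, 1.48 to 1.53 for Irf9, 0.22 to 0.26 for Irf1 and 0.21 to 0.25 for Irf2. Their limma adjusted p-values depended strongly on the setting. They ran from 5.6e-101 to 3.8e-11 for Irf7 and from 2.6e-98 to 1.4e-10 for Irf9. For Irf1 the range was 4e-11 to 0.00018 and for Irf2 4.1e-09 to 0.00018. The median over tested members was 0.123 with no filter on low values, where Irf4 enters as an eighth gene. It was 0.207 to 0.227 with a sample left out. Irf5 and Irf8, never called, changed sign: Irf5 was -0.012 with median centring, Irf8 was 0.006 with the sum of 2^value made equal, and with a sample left out Irf5 ranged from 0.000 to 0.012 and Irf8 from -0.019 to 0.012. In the list of IRF partners and regulators, 1 gene was called lower with median centring, and 0 to 1 with a sample left out. Its count called higher ran from 6 to 11 over the 12 alternatives. For the sensor list that count ran from 6 to 8 and for the ISGF3 list from 24 to 30, while the list linked to Irf1 stayed at 14. The number of genes called ranged from 2556 to 4541. Higher calls were 52.4% of all calls as deposited, 34.8% with median centring (1478 higher, 2765 lower) and 65.6% with equal sums (2516 higher, 1318 lower). The pair comparisons were repeated with a sample left out, an alternative chosen after seeing the data, and Irf1 minus Irf2 ranged from -0.028 to 0.056. Replicate numbers gave no sign of pairing: same-numbered deviations from the group mean correlated at 0.04, -0.12 and -0.19. With 3 samples per group this check cannot exclude a shared culture or batch. Not every sample correlated best with its own number. With a replicate block 3387 genes were called instead of 3742, and the 4 IRF calls held. Unknown depth limits Irf4, Irf5 and Irf8.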
